A study of Mus musculus with 18 samples.

Results

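Integrins are the paired alpha and beta receptors by which macrophages hold on to other cells and to extracellular matrix, and the RNA of 10 of their subunits was examined. They are Itgal, Itgam, Itgax and Itgb2, which form the leukocyte-restricted beta2 family, Itga4, Itga5, Itga6 and Itgb1, which form beta1 receptors, and Itgav with Itgb3, which form a vitronectin receptor. The genes were picked by symbol out of the 16474 genes of the deposited table, and all 10 were found in all 18 libraries. They also passed the filter on low values (a signal of at least 10 in at least 3 libraries), as did 15627 genes in all.

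Each integrin joins an alpha subunit to a beta subunit, and the alpha subunit largely sets which ligand the pair binds. Signals inside the cell switch integrins from a bent to an extended form through talin and kindlin, and the bound integrin signals back through Src family kinases, Syk and phosphoinositide 3-kinases. In macrophages, beta2 integrins bind ICAM-1, complement fragments and fibrinogen, while beta1 and beta3 integrins bind VCAM-1, fibronectin, laminins, vitronectin and osteopontin.

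The cells were macrophages grown from the bone marrow of C57BL/6 mice aged 8 weeks, either wild type (WT) or p110g-/-, which lack p110gamma, the leukocyte-enriched catalytic subunit of phosphoinositide 3-kinase encoded by Pik3cg. All groups shared 6 days of growth in 50 ng/ml M-CSF and then received 20 ng/ml M-CSF, alone or with IFNg and LPS (100 ng/ml) during 24 h, or with IL-4 (20 ng/ml) during 48 h. Stimulus and length of culture cannot be told apart in the IL-4 comparison. There were 6 groups of 3 libraries, numbered 1 to 3 in the labels. Nothing states that the 3 came from separate mice or cultures, so p-values measure only the spread between these libraries, which may be technical.

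Library depth lay between 40.1 M and 69.6 M reads (M, mega) over the listed genes, and counting error allows a gene with no read a signal of up to 2.15 to 4.74. Number 1 stood apart in every group: the mean squared difference between libraries, in units of counting variance, was 39.2 to 146 for pairs with number 1 and 15.2 to 46.9 between numbers 2 and 3. Pik3cg, the targeted gene, was 4993.5 to 5330.3 in WT and 1887.5 to 2045.8 in p110g-/- M-CSF, and 2952.9 to 3280.5 and 955.6 to 1083.3 in IL-4. In IFNg/LPS the WT libraries read 3559.5, 2309 and 2604.2 and the p110g-/- libraries 3691.4, 1410.5 and 2036.7 (log2 difference -0.34, adjusted p = 0.37 by limma). The library labelled p110g-/- IFNg/LPS number 1 thus goes against its label (without it the Pik3cg difference was -0.71, adjusted p = 0.0070). The genotype calls in IFNg/LPS named here are also given without that library, except those of cell type markers. Whether the counted reads lie in the deleted stretch is not given in the sources used here. All 10 measured macrophage markers stood above the counting floor in every library.

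In M-CSF alone, the resting macrophages held more Itgb2 and Itgam RNA than any other member. Levels of different genes are compared here per kb of exon, a mean over 3 libraries of normalised signal divided by exon length. In WT cells Itgb2, the shared beta2 subunit, was highest at 19938 ± 1779 per kb (SD, n = 3). Itgam, the CD11b subunit of the complement receptor Mac-1, followed at 10103 ± 708, and Itgb1 at 7884 ± 75.2. Itgax, the CD11c subunit of complement receptor p150,95, stood at 4295 ± 2046, which overlapped the next gene, the laminin receptor subunit Itga6, at 2392 ± 82.4. Below these came Itga5 at 1484 ± 92.5, Itga4 at 854 ± 53.4 and Itgav at 759.7 ± 8.11 per kb, whose library ranges did not overlap. The lowest levels were those of Itgal, the CD11a subunit of LFA-1, at 335 ± 202, and of Itgb3 at 279.2 ± 25.1, and these 2 overlapped. In p110g-/- cells in M-CSF the order of the 10 genes was the same, from Itgb2 at 23143 ± 1202 per kb down to Itgb3 at 373 ± 53.9.

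The plot of levels by library shows that 5 members ranged more widely than the other 5. From the lowest to the highest of the 18 libraries the normalised signal of Itgal differed 67.7-fold, of Itgb3 28.6-fold, of Itgax 27.8-fold, of Itga5 17.95-fold and of Itga6 16.1-fold. Itgb1 differed by 1.45-fold, Itgav by 2.18-fold, Itgb2 by 2.26-fold, Itgam by 2.86-fold and Itga4 by 4.83-fold. The beta subunits that serve several partners, Itgb1 and Itgb2, were among the least variable of the 10.

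**Figure D1:**
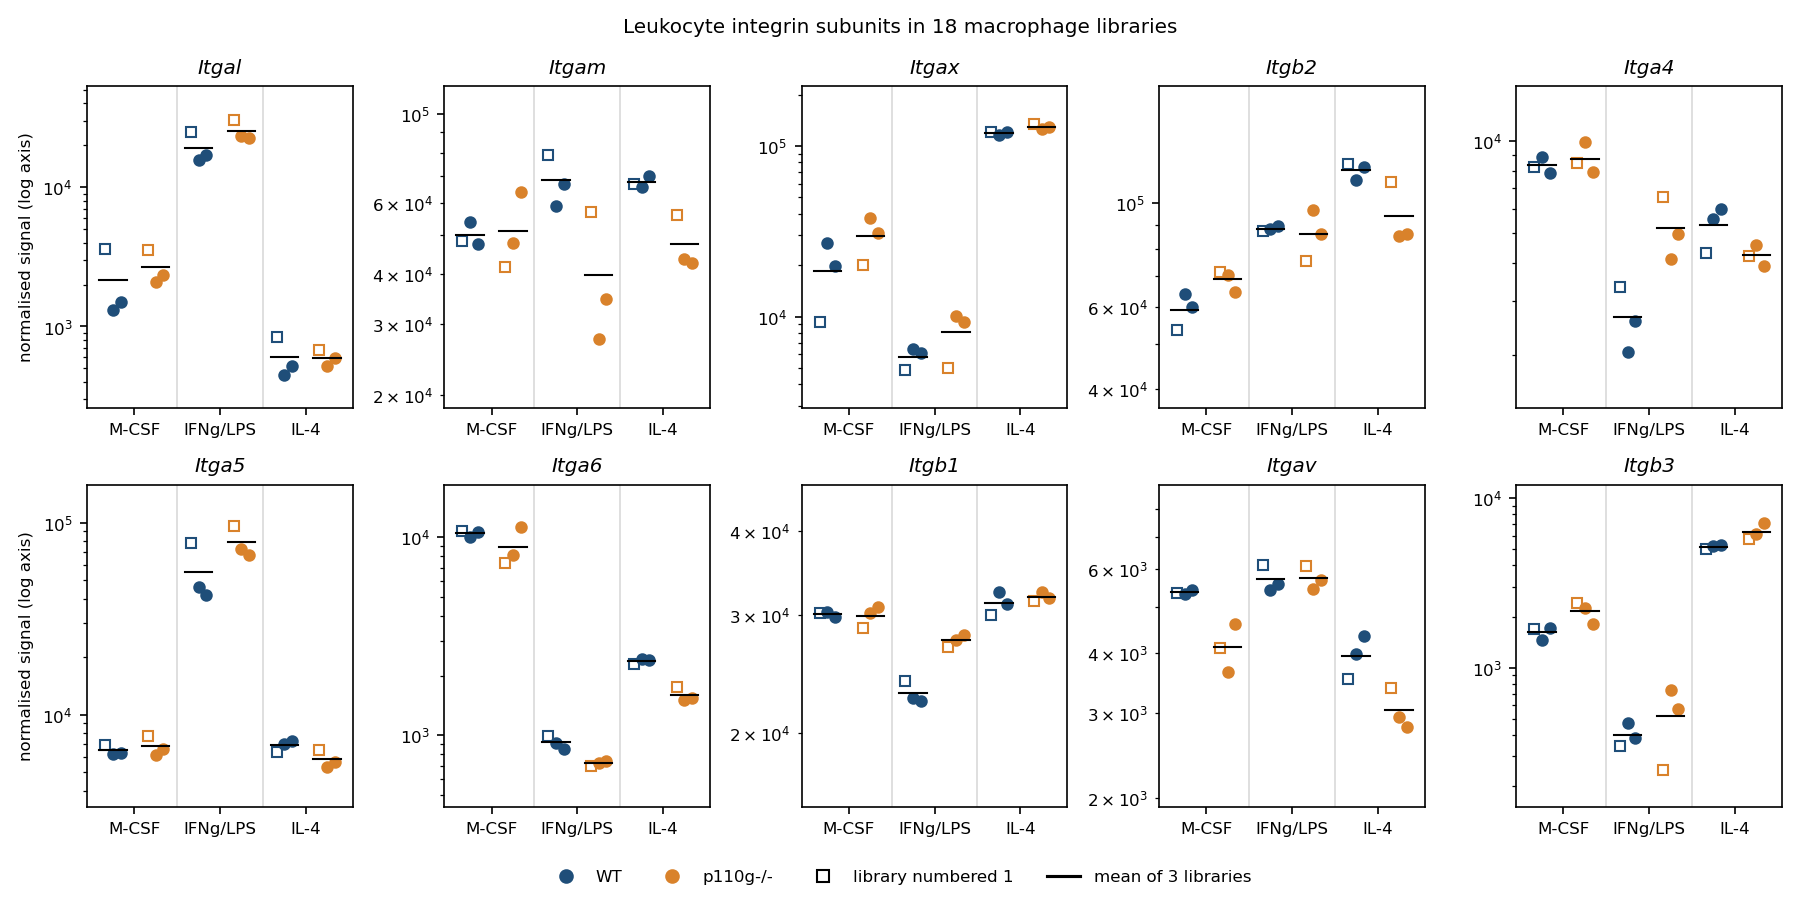
Normalised signal (log axis) of each of the 10 integrin subunits in every library, by stimulus along the horizontal axis. Blue points are WT, orange points p110g-/-, open squares the library numbered 1 and bars the mean of 3 libraries; Itgal and Itga5 stand highest in IFNg/LPS, Itgax and Itgb3 highest in IL-4, and Itga6 highest in M-CSF.

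IFNg/LPS changed 8 of the 10 subunits in WT macrophages. Itgal, Itga5 and Itgb2 rose, and Itga6, Itgb3, Itga4, Itgax and Itgb1 fell. Among all tested genes 36.3% were called higher and 37.5% lower, so that 3 and 5 of 10 is close to the share of genes in general. In p110g-/- cells 4 rose and 4 fell, against 36.2% of genes higher and 36.8% lower; there Itgav was also called higher and Itgb1 was not called. All calls used limma with an adjusted p under 0.05 over all genes. The median log2 difference over the 10 members was -0.15 in WT and -0.26 in p110g-/- cells, beside -0.01 over all tested genes in both.

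Itgal, which with Itgb2 forms the ICAM-binding LFA-1 of leukocyte contacts, had the largest rise in WT. Its signal was 3620.5, 1306 and 1488 in WT M-CSF and 24856, 15575 and 16947 in WT IFNg/LPS, in the order of the library numbers. It went from 3548.5, 2096 and 2352.5 to 30489.7, 23327 and 22352 in p110g-/- cells. Every IFNg/LPS library stood above every M-CSF library in both genotypes, and number 1 was highest in all 4 groups. The log2 fold change was 3.29 (SE 0.33, adjusted p = 2.3e-07) in WT and 3.28 (SE 0.33, adjusted p = 2.5e-07) in p110g-/- cells. In M-CSF, several sums of marker genes of other cell types were highest in number 1, as Itgal was. The summed signal of 11 neutrophil markers was 33562, 7427 and 11149.6 in WT M-CSF and 27820.1, 10585 and 12900.2 in p110g-/- M-CSF. For B cell markers it was 437.1, 169.4 and 180.8 in WT and 632.2, 156.3 and 222.4 in p110g-/- M-CSF. Fibroblast and endothelial markers gave 3859, 791 and 852, and 4746, 2019 and 2519. T and NK cell sums were also highest in number 1, while the osteoclast sum was lowest there. In IFNg/LPS, where Itgal was high, the neutrophil sum was only 1283 to 3891, with 8 of 11 above the counting floor in all libraries of each group against 9 or 10 in M-CSF, and Elane and Retnlg were at 0 in every IFNg/LPS library. The fibroblast and endothelial sum, led there by Kdr, was 4098 to 7284 in WT and 2971 to 8831 in p110g-/- IFNg/LPS. The part of these marker genes in the Itgal result was not tested. Leaving out WT M-CSF number 1 gave a WT log2 fold change of 3.75 (adjusted p = 1.1e-08).

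Itga5, the alpha subunit of the classical fibronectin receptor, rose about as far. Its signal was 6969.8, 6242.5 and 6297 in WT M-CSF and 78559, 46306 and 41912 in WT IFNg/LPS. The corresponding p110g-/- values were 7739.6, 6129.8 and 6604 and 96170.1, 73199 and 67406. Groups were far apart in both genotypes, with a log2 change of 3.04 (SE 0.19, adjusted p = 7.5e-10) in WT and 3.52 (SE 0.19, adjusted p = 1.4e-10) in p110g-/- cells. Per kb, Itga5 moved from the sixth place to the third in WT, at 12687 ± 4567, where it overlapped Itgam, and to the second in p110g-/- cells, at 18011 ± 3472. As these are bulk samples, more cells with a transcript and more transcript per cell cannot be told apart for any member.

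The laminin receptor subunit Itga6 fell most. Its signal was 10689, 10021 and 10586 in WT M-CSF and 991, 917 and 856 in WT IFNg/LPS. The p110g-/- values went from 7403, 8063 and 11267 to 701, 724 and 739. No IFNg/LPS library came near an M-CSF library. The log2 fold change was -3.50 (SE 0.11, adjusted p = 8.2e-13) in WT and -3.60 (SE 0.11, adjusted p = 5.9e-13) in p110g-/- cells.

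Itga4, which pairs with Itgb1 as the VCAM-1 and fibronectin receptor VLA-4, fell to 3335, 2048 and 2590 in WT from 8255, 8897 and 7863. The p110g-/- libraries reached only 6543, 4128 and 4968 from 8446.5, 9896 and 7898. The log2 fold change was -1.68 (SE 0.18, adjusted p = 4.2e-07) in WT and -0.77 (SE 0.18, adjusted p = 0.0011) in p110g-/- cells. Their shared partner Itgb1 moved little, from 30139, 30327 and 29764 to 23919.6, 22576 and 22349.8 in WT. Its groups did not overlap, and the log2 fold change was -0.39 (SE 0.06, adjusted p = 1.1e-05) in WT. For p110g-/- cells the Itgb1 value was -0.12 (SE 0.06, adjusted p = 0.062) and did not pass. Without p110g-/- M-CSF number 1 it did (-0.15, adjusted p = 0.041). With all libraries rescaled to equal totals, Itgb1 was also called lower in p110g-/- cells.

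Itgax and Itgb3 fell in both genotypes. Itgax read 9233, 26850.1 and 19745.5 in WT M-CSF and 4831, 6496 and 6142 in WT IFNg/LPS, and the log2 fold change was -1.56 (SE 0.33, adjusted p = 0.00049). The p110g-/- libraries read 20140.4, 37691 and 30676 and 4985, 10059 and 9275, a log2 change of -1.88 (SE 0.33, adjusted p = 8.6e-05). Number 1 was the lowest library of its group in all 4 of these groups, but no M-CSF library fell within the IFNg/LPS range of its genotype. Itgb3, a beta partner of Itgav in a receptor of vitronectin and osteopontin, fell from 1678.5, 1449 and 1717 to 344, 471.5 and 385 in WT. It fell from 2417, 2244 and 1812 to 250, 738.5 and 572 in p110g-/- cells. The log2 fold changes were -2.02 (SE 0.27, adjusted p = 5.2e-06) and -2.18 (SE 0.27, adjusted p = 2.3e-06).

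Itgb2, Itgav, Itgam and, in p110g-/- cells, Itgb1 depended on how libraries were scaled. The total normalised signal was 60.8 M to 67.6 M in IFNg/LPS and 45.7 M to 49.7 M elsewhere, and rescaling all libraries to equal totals, a choice made after the data were seen, took the median log2 difference of all genes between IFNg/LPS and M-CSF from -0.01 to -0.51 in WT and from -0.01 to -0.41 in p110g-/- cells. All-gene calls then split 3146 higher and 8924 lower in WT, in place of 5676 and 5862, and 3517 and 8282 in p110g-/- cells, in place of 5661 and 5747. Itgb2 was 53582.5, 64065 and 59998 in WT M-CSF and 87076, 88317 and 89358 in WT IFNg/LPS. Its log2 fold change of 0.58 (SE 0.11, adjusted p = 0.00020) became 0.07 (adjusted p = 0.57) with equal totals, and in p110g-/- cells 0.32 (SE 0.11, adjusted p = 0.017) became -0.09 (adjusted p = 0.51). The p110g-/- call of Itgb2 also ended without the M-CSF library numbered 3 (adjusted p = 0.066) or the IFNg/LPS library numbered 2 (adjusted p = 0.092). Itgav was 5347, 5308.5 and 5421 in WT M-CSF and 6112, 5420.1 and 5576 in WT IFNg/LPS, a log2 change of 0.09 (SE 0.09, adjusted p = 0.41) that turned to -0.42 (adjusted p = 0.00065) with equal totals. Itgav in p110g-/- cells rose from 4093, 3659.9 and 4614 to 6081, 5438 and 5684, and 0.48 (SE 0.09, adjusted p = 0.00026) became 0.08 (adjusted p = 0.45). The directions of Itgal, Itga5, Itga6, Itga4, Itgb3, Itgax and of Itgb1 in WT held under both scalings.

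Itgam did not pass the test in either genotype in the fit of all 18 libraries, and its estimates had opposite signs. It read 48165, 53766 and 47371.5 in WT M-CSF and 78695, 59086 and 66888 in WT IFNg/LPS, a log2 difference of 0.45 (SE 0.21, adjusted p = 0.070). In a fit of the groups compared by themselves the WT value passed (0.45, adjusted p = 0.015). The p110g-/- libraries read 41449, 47604 and 63970.1 and 56916, 27514 and 34587, a log2 difference of -0.41 (SE 0.21, adjusted p = 0.098). The WT groups did not overlap, whereas the p110g-/- groups did. With equal totals the WT value was -0.06 (adjusted p = 0.80) and the p110g-/- value -0.81 (adjusted p = 0.0019). The p110g-/- fall of Itgam was also called without IFNg/LPS number 1 (-0.70, adjusted p = 0.0022) or M-CSF number 1 (-0.54, adjusted p = 0.049).

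IL-4 changed 7 of the 10 subunits in WT and the same 7, each in the same direction, in p110g-/- cells. Itgax, Itgb3 and Itgb2 rose, and Itga6, Itgal, Itga4 and Itgav fell. The WT background was 22.9% of genes higher and 21.1% lower, and that of p110g-/- cells 22.7% and 21.2%. With equal totals the WT split of all genes was 2754 higher and 4006 lower in place of 3577 and 3291. The 2 responses are shown side by side in the plot of responses to the stimuli. The median log2 difference over the members was 0.07 in WT and -0.16 in p110g-/- cells, beside 0.00 and -0.01 over all tested genes.

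**Figure D2:**
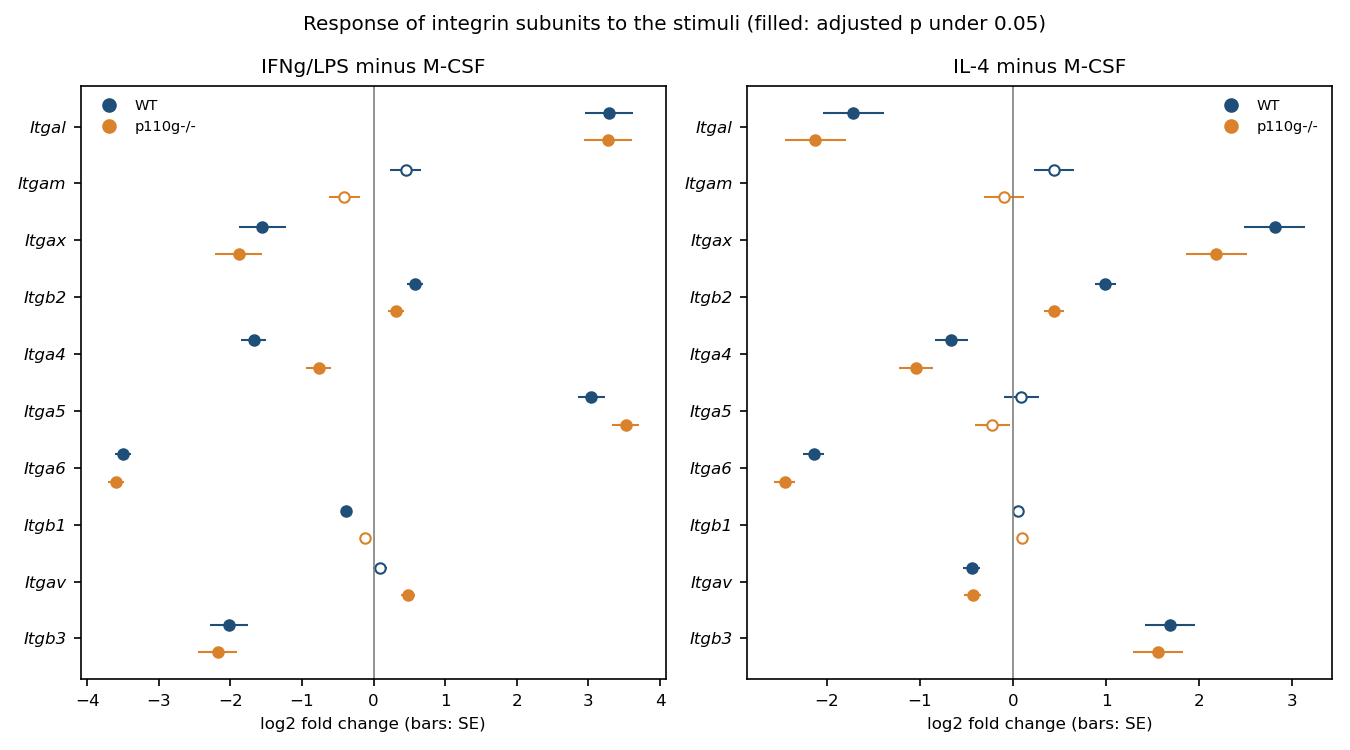
Log2 fold change of each subunit with IFNg/LPS (left) and IL-4 (right) against M-CSF, in WT (blue) and p110g-/- (orange); bars are the SE of the limma fit and filled points have an adjusted p under 0.05. Itgal and Itga5 lie above 3 with IFNg/LPS in both genotypes, Itga6 lies at -3.50 and -3.60, and Itgax rises only with IL-4 and falls with IFNg/LPS.

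Itgax, the CD11c subunit that is used as a marker of dendritic cells and of tissue macrophages, rose most with IL-4. From 9233, 26850.1 and 19745.5 in WT M-CSF it reached 121387, 115166 and 121402. From 20140.4, 37691 and 30676 in p110g-/- M-CSF it reached 134476, 125610 and 128298. The IL-4 libraries agreed closely with each other, while the M-CSF libraries ranged widely with number 1 lowest. The log2 fold change was 2.81 (SE 0.33, adjusted p = 7.3e-06) in WT and 2.18 (SE 0.33, adjusted p = 7.3e-05) in p110g-/- cells, and with the libraries numbered 2 and 3 alone it was 2.36 and 1.90. Itgb2, its beta partner, rose from 53582.5, 64065 and 59998 to 121161, 112155 and 119422 in WT. Its rise in p110g-/- cells was from 71359.7, 70174 and 64671 to 110931, 85082 and 85918. The log2 fold changes of Itgb2 were 0.99 (SE 0.11, adjusted p = 4.6e-06) and 0.44 (SE 0.11, adjusted p = 0.0044). The summed signal of 8 dendritic cell markers was 489 to 502 in WT M-CSF and 1594 to 1699.5 in WT IL-4, and 563.5 to 833 and 1916 to 2138 in p110g-/- cells. In each genotype 2 of the 8 rose with IL-4 (Batf3, 3.10 in WT, and Zbtb46, 2.06) and 2 fell (Flt3, -2.29, and Cd209a, -2.32), and their part in the Itgax result was not tested.

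Itgb3 rose with IL-4 from 1678.5, 1449 and 1717 to 4999, 5236 and 5288 in WT. The p110g-/- libraries went from 2417, 2244 and 1812 to 5706, 6155 and 7143. There was no overlap in either genotype. The log2 fold changes were 1.68 (SE 0.27, adjusted p = 0.00014) and 1.56 (SE 0.27, adjusted p = 0.00025). Osteoclasts, which differentiate from the same precursors, carry high levels of this subunit. The summed signal of 6 osteoclast markers, led by Atp6v0d2, was 33792 to 63093 in WT M-CSF, 7811 to 11014 in WT IFNg/LPS and 109566 to 119912 in WT IL-4, with 6 of 6 above the counting floor in all libraries. For p110g-/- cells the sum was 62583 to 84660.4, 6983 to 12479 and 114604 to 127203, with 5 of 6 above the floor in M-CSF and 6 of 6 in the others. Atp6v0d2 by itself averaged 45128, 3402 and 85852 in WT M-CSF, IFNg/LPS and IL-4, so the sum mostly follows that gene. Of the 6 in WT, 2 rose and 3 fell with IFNg/LPS (36.3% and 37.5% of all tested genes). With IL-4, 4 rose and 1 fell (22.9% and 21.1%). In p110g-/- cells it was 2 and 4 (36.2% and 36.8%), and 4 and 1 (22.7% and 21.2%). The part of these genes in the Itgb3 result was not tested.

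The 4 subunits that fell with IL-4 included Itga6 and Itgal. Itga6 went from 10689, 10021 and 10586 in WT M-CSF to 2284.5, 2432 and 2381 in WT IL-4. In p110g-/- IL-4 it read 1753, 1509.7 and 1541. The log2 fold changes were -2.14 (SE 0.11, adjusted p = 3.2e-09) in WT and -2.45 (SE 0.11, adjusted p = 4.5e-10) in p110g-/- cells, with the groups far apart. Itgal read 842, 450.4 and 522 after IL-4 in WT and 676, 523 and 597 in p110g-/- cells, the lowest of the 3 stimuli in both genotypes. Its log2 fold changes were -1.72 (SE 0.33, adjusted p = 0.00069) and -2.12 (SE 0.33, adjusted p = 0.00010). In WT IL-4 the neutrophil marker sum was again highest in number 1, at 25682 against 5588 and 5501, as Itgal was. So were the sums of B cell markers (361.3, 140.2 and 78.4) and of fibroblast and endothelial markers (1559, 772 and 725). That of dendritic cell markers was lowest in number 1. The part of these markers in the Itgal result was not tested.

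Itga4 and Itgav moved less. Itga4 read 4325, 5579.8 and 6006 after IL-4 in WT and 4229, 4584 and 3897 in p110g-/- cells, with log2 fold changes of -0.66 (SE 0.18, adjusted p = 0.0070) and -1.04 (SE 0.18, adjusted p = 0.00023). Itgav read 3535, 3979.7 and 4342 and 3391, 2949 and 2802, with log2 fold changes of -0.44 (SE 0.09, adjusted p = 0.0014) and -0.43 (SE 0.09, adjusted p = 0.0016). Itga5 (0.09, SE 0.19, adjusted p = 0.74), Itgb1 (0.05, SE 0.06, adjusted p = 0.48) and Itgam (0.44, SE 0.21, adjusted p = 0.11) did not pass in WT. Itgam read 66814, 65821.5 and 69767 in WT IL-4, above every WT M-CSF library, and in the fit of only the groups compared it had an adjusted p of 0.0037.

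The subunits that pair with Itgb2 stood in different proportions under each stimulus. Of the summed signal per kb of Itgal, Itgam, Itgax and Itgad (the CD11d subunit), Itgam made up 68.1% ± 7.99 in WT M-CSF and Itgax 27.6% ± 9.59. In WT IFNg/LPS Itgam made up 75.8% ± 0.867 and Itgal 16.2% ± 1.95, while Itgax was down to 7.55% ± 2.07. In WT IL-4 Itgax took 64.5% ± 0.435, Itgam 32.1% ± 0.535 and Itgal 0.221% ± 0.0738. In p110g-/- IFNg/LPS Itgal took 28.6% ± 2.29, between 27.2% and 31.3%, above the 14.98% to 18.5% of WT, and Itgam took 56.2% ± 9.07, between 47.8% and 65.8%, below the 74.9% to 76.6% of WT. In p110g-/- IL-4 Itgax took 72.8% ± 2.13, above the WT range. A share also moves when another gene of the set does. By limma the signal of Itgal itself was not called between genotypes in IFNg/LPS (0.43, adjusted p = 0.43), and its groups overlapped. That of Itgax was not called in IL-4 (0.12, adjusted p = 0.93), though its groups did not overlap. The sum of the 4 was 15027 ± 2509 per kb in WT M-CSF and 42723 ± 1235 in WT IL-4, against 39589 ± 1609 per kb of Itgb2. These shares are descriptions over 3 libraries, taken with exon lengths of a newer annotation than the authors' build.

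Among the subunits that bind matrix and VCAM-1, Itga6 led in WT M-CSF and Itga5 in WT under both stimuli. Of the summed signal per kb of Itga4, Itga5, Itga6 and Itgav in WT M-CSF, Itga6 made up 43.6% ± 0.995 and Itga5 27.0% ± 1.00. In WT IFNg/LPS Itga5 made up 90.3% ± 2.11 and Itga6 1.59% ± 0.363. In WT IL-4 Itga5 made up 49.0% ± 0.828 and Itga6 16.9% ± 1.01. In p110g-/- M-CSF Itga6 took 39.9% ± 6.07, between 34.6% and 46.5%, and Itga5 30.8% ± 4.61, between 27.1% and 35.98%, so that the 2 ranges overlapped. In p110g-/- cells Itga5 took 92.2% ± 0.859 in IFNg/LPS and 51.9% ± 1.84 in IL-4. With IL-4 the Itga5 share was larger without a called change in Itga5 itself, while Itga6, Itga4 and Itgav fell.

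**Figure D3:**
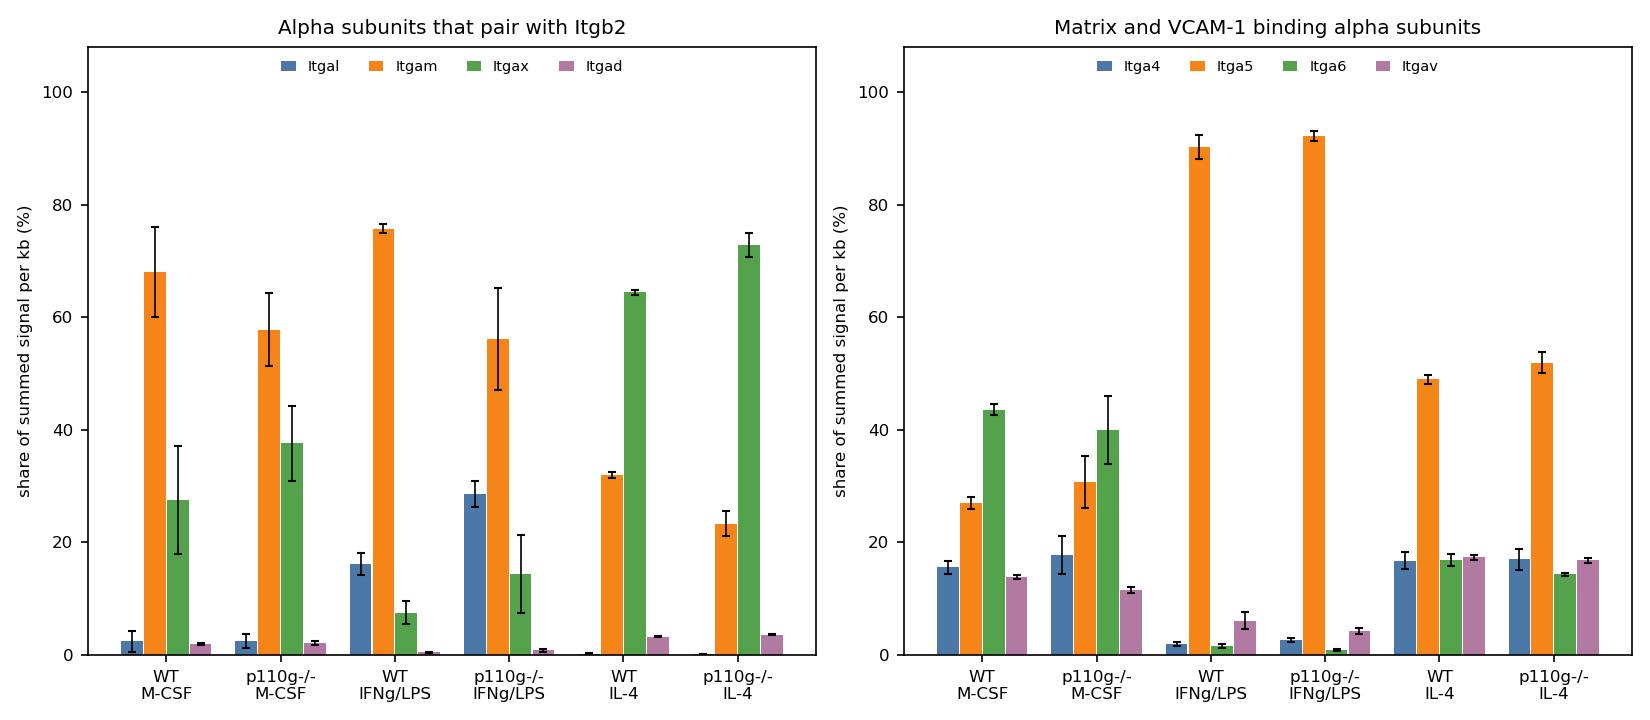
Share (%) of the summed signal per kb of exon held by each alpha subunit in each group, as the mean of 3 libraries with SD bars, for the 4 partners of Itgb2 (left) and for Itga4, Itga5, Itga6 and Itgav (right). Itgam is the largest Itgb2 partner in M-CSF and IFNg/LPS and Itgax in IL-4, and Itga5 exceeds 90% of the right-hand set with IFNg/LPS.

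Itgam and Itgax lie next to each other on the chromosome, followed by Itgad, with Trim72 and Cox6a2 on either side of the 3 (RefSeq order). With IL-4 in WT, Itgax and Itgad rose together, by 2.81 and 2.28 on the log2 scale, while Itgam was not called. The 250 bases before the RefSeq start of 6 members (Itga4, Itga5, Itgam, Itgav, Itgax and Itgb1) were found in the RefSeq table of GRCm38.p6 promoters. Those of the neighbours Itgax and Itgam, of which only Itgax was called with IL-4, and of Itga5, which rose with IFNg/LPS in both genotypes, are printed 5′ to 3′ in the direction of the gene. Capitals mark matches on either strand to GAGGAA (bound by PU.1, the main myeloid factor of the Ets family), TGANTCA (AP-1) and TTCNNNNGAA (STAT6, the factor that IL-4 activates). Itgax lies at chr7:128129300-128129549 on the plus strand, Itgam at chr7:128062390-128062639 on the plus strand and Itga5 at chr15:103366792-103367041 on the minus strand.
Itgax: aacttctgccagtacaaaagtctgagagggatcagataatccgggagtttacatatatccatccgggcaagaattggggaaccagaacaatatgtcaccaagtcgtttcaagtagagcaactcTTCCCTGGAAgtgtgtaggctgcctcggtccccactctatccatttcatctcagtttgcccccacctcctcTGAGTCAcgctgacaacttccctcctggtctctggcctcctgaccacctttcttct
Itgam: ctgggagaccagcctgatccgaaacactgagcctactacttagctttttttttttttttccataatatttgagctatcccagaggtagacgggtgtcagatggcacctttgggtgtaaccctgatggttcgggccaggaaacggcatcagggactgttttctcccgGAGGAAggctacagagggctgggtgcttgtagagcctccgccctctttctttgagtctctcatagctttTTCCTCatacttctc
Itga5: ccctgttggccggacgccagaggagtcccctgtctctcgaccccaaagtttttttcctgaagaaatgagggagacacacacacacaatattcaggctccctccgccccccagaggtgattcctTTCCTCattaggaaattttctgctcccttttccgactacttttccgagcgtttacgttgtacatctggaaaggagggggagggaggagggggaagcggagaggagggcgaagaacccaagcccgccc

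The Itgax window held a STAT6 match starting 127 bases before the start and an AP-1 match 56 bases before it, and no PU.1 match. The Itgam window held PU.1 matches 84 and 15 bases before the start, and that of Itga5 a PU.1 match 127 bases before it. Among 32851 RefSeq promoter windows of the same length, 5.85% held the STAT6 letters, 6.75% the AP-1 letters and 23.3% the PU.1 letters. Sp1 (GGGCGG, in 32.7% of windows) matched once in Itgam and at 2 places in Itga5, left in lower case. The letters TATAAA (a core promoter element, 12.4%), TTGCNNAA (C/EBP, 9.56%), TTCNNNGAA (the STAT site called GAS, 7.02%) and the NF-kB motif (7.25%) had no match in the 3 windows. The STAT6 and GAS letters differ only in the length of the gap. GC content was 50.0% in Itgax, 49.6% in Itgam and 55.6% in Itga5, around the all-window median of 52.4%. A match describes letters, not binding.

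Loss of p110gamma changed far fewer subunits than the stimuli did. In IFNg/LPS, Itga4 and Itgb1 were higher and Itgam lower in p110g-/- than in WT cells. In M-CSF only Itgav passed, and in IL-4 Itga6 and Itgav, all 3 of them lower. The calls were 0 higher and 1 lower of 10 in M-CSF (background 1.06% and 1.27%), 2 and 1 in IFNg/LPS (6.94% and 7.79%), and 0 and 2 in IL-4 (1.34% and 1.99%). By edgeR on recovered reads the called members numbered 1, 3 and 2, and by DESeq2 1, 4 and 2. Unadjusted p-values under 0.05 numbered 3, 5 and 4.

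**Figure D4:**
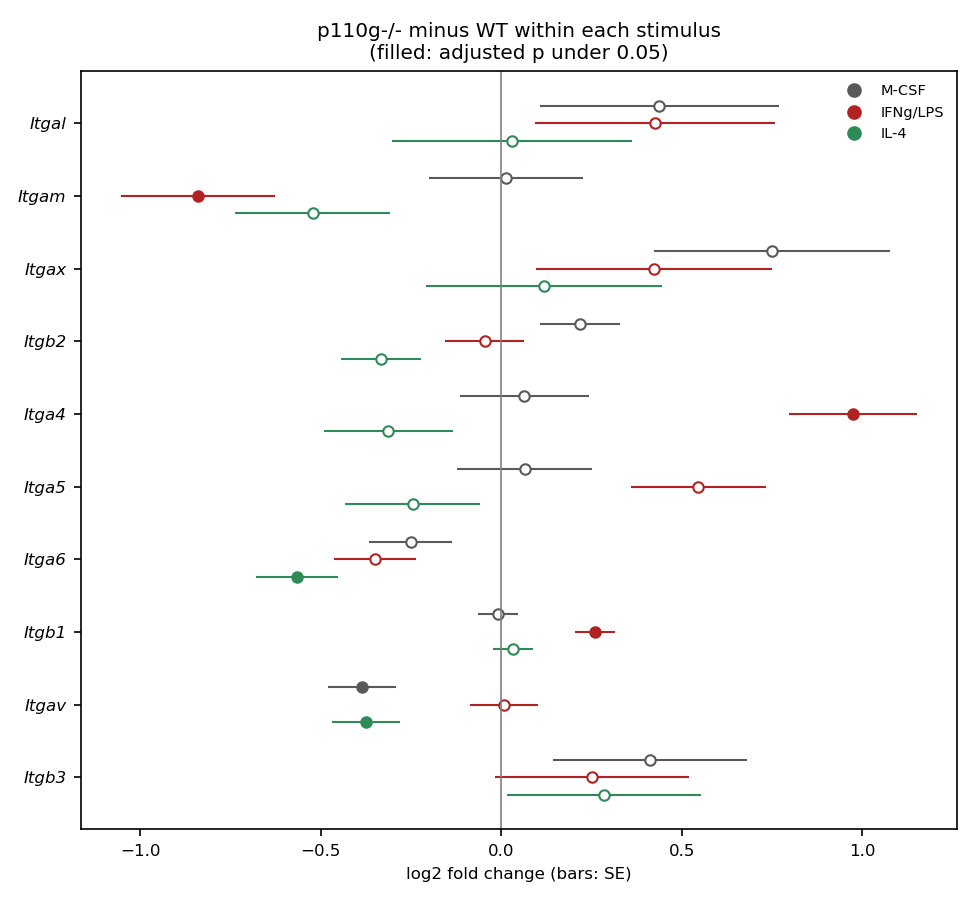
Log2 fold change of p110g-/- against WT for each subunit within M-CSF (grey), IFNg/LPS (red) and IL-4 (green); bars are the SE of the limma fit and filled points have an adjusted p under 0.05. Itga4 lies at 0.97 and Itgam at -0.84 in IFNg/LPS, and Itga6 lies below 0 under all 3 stimuli.

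Itga4 was higher in p110g-/- IFNg/LPS. It read 6543, 4128 and 4968 in p110g-/- and 3335, 2048 and 2590 in WT cells. Every p110g-/- library stood above every WT library. The log2 fold change was 0.97 (SE 0.18, adjusted p = 0.0020), and 0.80 (adjusted p = 0.0073) without the library labelled p110g-/- number 1. In M-CSF and IL-4 the difference was 0.06 (SE 0.18, adjusted p = 0.95) and -0.31 (SE 0.18, adjusted p = 0.47). Itgb1, its partner, read 26890.2, 27540.1 and 28014 in p110g-/- and 23919.6, 22576 and 22349.8 in WT IFNg/LPS. These 3 and 3 libraries did not overlap either, and the log2 fold change was 0.26 (SE 0.06, adjusted p = 0.0057), or 0.28 (adjusted p = 0.0078) without that library.

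Itgam, the CD11b subunit, was lower in p110g-/- IFNg/LPS, at 56916, 27514 and 34587 against 78695, 59086 and 66888 in WT. Number 1 was the highest p110g-/- library and the one with high Pik3cg, and all 3 p110g-/- values were below the WT values. The log2 fold change was -0.84 (SE 0.21, adjusted p = 0.015), and -1.14 (adjusted p = 0.00065) without number 1. The call ended without the p110g-/- library numbered 2 (-0.61, adjusted p = 0.084) or 3 (-0.78, adjusted p = 0.054). A fit of the 6 IFNg/LPS libraries by themselves ended all 3 calls of that comparison, with adjusted p = 0.058 for Itga4, 0.11 for Itgb1 and 0.12 for Itgam. In IL-4, Itgam read 56092, 43392 and 42503 in p110g-/- and 66814, 65821.5 and 69767 in WT cells, and this difference (-0.52, SE 0.21, adjusted p = 0.24) did not pass.

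Itga5 in IFNg/LPS read 96170.1, 73199 and 67406 in p110g-/- cells, beside 78559, 46306 and 41912 in WT. Number 1 was the highest in each genotype, and the WT number 1 exceeded p110g-/- numbers 2 and 3. The log2 difference of 0.55 (SE 0.19, adjusted p = 0.062) missed the threshold. With the library number as a block, the adjusted p was 0.018; same-numbered libraries deviated together in this comparison (correlations of 0.256 to 0.546). With equal totals the value was 0.64 (adjusted p = 0.022), and all-gene calls split 1939 higher and 741 lower in place of 1085 and 1218. In the libraries numbered 2 and 3 by themselves 7 members were called in IFNg/LPS, with Itga5 (0.67), Itgal (0.49), Itgax (0.61) and Itgb3 (0.61) higher in p110g-/- cells beside Itga4, Itgb1 and, lower, Itgam. All-gene calls in that fit also grew, to 1959 higher and 2207 lower of 15627 tested genes. Without the library labelled p110g-/- number 1, Itgb3 was also higher (0.71, adjusted p = 0.0057). Without WT number 1, Itga5 was higher (0.82, adjusted p = 0.0011).

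Of 8 dendritic cell markers, 1 was called between genotypes in the same libraries, beside 6.94% of all tested genes higher and 7.79% lower. It was Ccr7, a chemokine receptor that activated macrophages can also carry, with 19983, 9112 and 7190 in p110g-/- and 3926, 1033 and 979 in WT IFNg/LPS (log2 fold change 2.79, adjusted p = 0.0039, up to 0.051 in the alternatives). The other 7 were not called, with log2 differences from -0.62 (Clec9a) to 1.06 (Zbtb46, adjusted p = 0.067), and Cd209a was at 0 in both genotypes. The summed signal of the 8 was 20838, 9982 and 8032 in p110g-/- and 5055, 2038 and 1699 in WT IFNg/LPS. Without Ccr7 it was 854.9, 870.4 and 841.9 in p110g-/- and 1129, 1006 and 720.1 in WT, and these ranges overlapped. The part of these markers in the Itga4, Itgb1 and Itgam results was not tested.

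Itga6 and Itgav were lower in p110g-/- cells. In IL-4, Itga6 read 1753, 1509.7 and 1541 in p110g-/- and 2284.5, 2432 and 2381 in WT cells. The groups did not overlap, and the log2 fold change was -0.57 (SE 0.11, adjusted p = 0.011), with M-CSF and IFNg/LPS at -0.25 (SE 0.11, adjusted p = 0.36) and -0.35 (SE 0.11, adjusted p = 0.052). Leaving out WT or p110g-/- IL-4 number 2 or 3 gave an adjusted p of 0.051 to 0.062 for Itga6. Without the p110g-/- M-CSF library numbered 3, Itga6 was also lower in M-CSF (-0.43, adjusted p = 0.0074). Itgav in M-CSF read 4093, 3659.9 and 4614 in p110g-/- and 5347, 5308.5 and 5421 in WT cells, a log2 change of -0.38 (SE 0.09, adjusted p = 0.044). In IL-4 it read 3391, 2949 and 2802 against 3535, 3979.7 and 4342, a log2 change of -0.37 (SE 0.09, adjusted p = 0.040). Neither pair of groups overlapped, but both Itgav calls ended in the fit of the groups compared (adjusted p = 0.086 and 0.10) and without trend and robust variance (0.071 and 0.065). The M-CSF call ended when any library of that comparison other than p110g-/- number 3 was left out, and the IL-4 call when number 2 or 3 of either genotype was left out, with an adjusted p of up to 0.22. In IFNg/LPS the Itgav difference was 0.01 (SE 0.09, adjusted p = 0.97). In the same comparisons 1 of 6 platelet and megakaryocyte markers, Pf4, was lower in p110g-/- cells (-2.13 in M-CSF, adjusted p = 2.2e-05, and -1.55 in IL-4, adjusted p = 0.00051). The other 5 were not called. Of all tested genes 1.27% were lower in M-CSF and 1.99% in IL-4. The summed signal of the 6 was 539.9 to 762 against 2009 to 2209 in M-CSF and 289.7 to 358 against 767 to 855 in IL-4. Pf4 by itself averaged 463 against 1955 in M-CSF and 240 against 692 in IL-4, so the sum mostly follows that gene. Of 4 tested mast cell and basophil markers 0 were called in M-CSF by limma (2 at an unadjusted p under 0.05, 0 by edgeR and DESeq2) and 2 were lower in IL-4, Cpa3 (-1.76, adjusted p = 0.036) and Mcpt8 (-2.19, adjusted p = 0.018). In IFNg/LPS, where Itgav was not called, 1 of 6 platelet markers was also lower (7.79% of all tested genes), with a sum of 204 to 410.5 against 488 to 896. Pf4 by itself averaged 132 against 425 there. Of 10 fibroblast and endothelial markers, Dcn was higher in M-CSF (1.74, adjusted p = 0.020 by limma) and 0 were called in IL-4. Their sum was 2019 to 4746 against 791 to 3859 in WT M-CSF, which overlapped, and 1679 to 2154 against 725 to 1559 in WT IL-4. Their median log2 difference was 1.23 in M-CSF and 0.88 in IL-4. Cdh5 (-1.32) and Pecam1 (-0.39) had negative values in M-CSF, and Cdh5 (-0.42) and Kdr (-0.16) in IL-4, none of them called. The part of these markers in the Itga6 and Itgav results was not tested. Itgb2 in IL-4 did not pass (-0.33, SE 0.11, adjusted p = 0.13) but did without p110g-/- number 1 (-0.46, adjusted p = 0.019).

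Averaged over the 3 stimuli, 3 of 10 members were lower in p110g-/- cells and 0 higher, beside 6.52% and 5.29% of all tested genes. They were Itga6 (-0.39, SE 0.07, adjusted p = 0.0011), Itgav (-0.25, SE 0.05, adjusted p = 0.0069) and Itgam (-0.45, SE 0.12, adjusted p = 0.027). The Itga6 and Itgav calls held in all 28 alternatives. The Itgam call ended, with an adjusted p of up to 0.060, without WT M-CSF number 2, WT IL-4 number 3, p110g-/- M-CSF number 1 or 2, p110g-/- IFNg/LPS number 3, or p110g-/- IL-4 number 2 or 3. Without WT IFNg/LPS number 1 Itga4 (0.30, adjusted p = 0.044) and Itgb1 (0.10, adjusted p = 0.041) were called higher, and without the library labelled p110g-/- IFNg/LPS number 1 Itgb3 (0.47, adjusted p = 0.0014). With equal totals the all-gene split of this average was 1106 higher and 727 lower, in place of 827 and 1019. Over the 10 members the median log2 difference was 0.06 in M-CSF, 0.26 in IFNg/LPS and -0.28 in IL-4, beside 0.00 over all tested genes each time.

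No member passed a test of whether the genotype effect differed between a stimulus and M-CSF. For IFNg/LPS, limma called 0 of 10 higher and 0 lower (background 1.02% and 1.42%), 4 had an unadjusted p under 0.05, edgeR called 0 and DESeq2 2 (Itga4 and Itgb1). The 4 were Itga4 (0.91, SE 0.25, adjusted p = 0.069), Itgb1 (0.27, SE 0.08, adjusted p = 0.084), Itgav (0.39, SE 0.13, adjusted p = 0.13) and Itgam (-0.85, SE 0.30, adjusted p = 0.15). With equal totals Itga4 (1.02), Itgb1 (0.38) and Itgav (0.50) passed, and all-gene calls split 372 higher and 147 lower in place of 159 and 222. Without WT IFNg/LPS number 1 Itga4 (1.09, adjusted p = 0.020) and Itga5 (0.76, adjusted p = 0.033) passed, and without the library labelled p110g-/- IFNg/LPS number 1 Itgam did (-1.15, adjusted p = 0.016). For IL-4, limma called 0 of 10 (background 0.0% in each direction, with 1156 of all genes at an unadjusted p under 0.05, 0 by edgeR and 77 by DESeq2), 1 member had an unadjusted p under 0.05, and edgeR and DESeq2 called 0. That member was Itgb2 (-0.55, SE 0.16, adjusted p = 0.34), which passed without p110g-/- IL-4 number 1 (-0.68, adjusted p = 0.046).

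Of 16 other integrin subunits listed, 13 passed the filter. In WT, 4 rose and 4 fell with IFNg/LPS (36.3% and 37.5% of all tested genes), and 3 rose and 4 fell with IL-4 (22.9% and 21.1%). In p110g-/- cells it was 4 and 5 (36.2% and 36.8%), and 3 and 5 (22.7% and 21.2%). Itgb5, a beta partner of Itgav, fell from 19003, 22884 and 23532 in WT M-CSF to 1282, 1909 and 1655 in WT IFNg/LPS, a log2 fold change of -3.77 (adjusted p = 1.2e-11). With IL-4 it read 15693, 13851 and 14207 and fell by 0.58 on the log2 scale (adjusted p = 0.0089). Itga9, which pairs with Itgb1, fell with IL-4 by 3.80 on the log2 scale (adjusted p = 9.3e-07), and Itgad rose (2.28, adjusted p = 1.2e-06). Itgb8, a beta partner of Itgav that helps to release active TGF-beta, was low but differed by genotype: it read 282.6, 318.9 and 242.6 in p110g-/- IFNg/LPS and 44.3, 41.1 and 49.0 in WT IFNg/LPS. The groups were far apart, and the log2 fold change was 2.62 (adjusted p = 7.0e-06). In M-CSF it read 24.1, 27.3 and 19 in p110g-/- and 7.7, 15.7 and 9.7 in WT cells (log2 fold change 1.06, adjusted p = 0.033, up to 0.19 in the alternatives). Without the library labelled p110g-/- IFNg/LPS number 1 the Itgb8 difference was 2.61 (adjusted p = 4.9e-05). Between genotypes Itgb8 was the only other subunit called in M-CSF or IFNg/LPS. Of all tested genes 1.06% were higher and 1.27% lower in M-CSF, and 6.94% and 7.79% in IFNg/LPS. None was called in IL-4 (limma 0 of 13, background 1.34% and 1.99%, 1 at an unadjusted p under 0.05, 0 by edgeR and DESeq2).

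Of 20 tested ligands and counter-receptors, 6 rose and 11 fell with IFNg/LPS in WT (36.3% and 37.5% of all tested genes). With IL-4, 2 rose and 5 fell in WT (22.9% and 21.1%). In p110g-/- cells it was 6 and 12 with IFNg/LPS (36.2% and 36.8%), and 2 and 8 with IL-4 (22.7% and 21.2%). Icam1, the ligand of the Itgb2 integrins, rose with IFNg/LPS from 4119.8, 3032 and 2604 to 40181.5, 39658 and 36419.6 in WT (log2 fold change 3.60, adjusted p = 2.1e-11). Complement C3, whose fragment binds Itgam and Itgax integrins, rose by 5.88 (adjusted p = 3.7e-08). Fn1, fibronectin, rose with IL-4 from 797, 1034 and 535 to 8818, 25748 and 23019 in WT (log2 fold change 4.51, adjusted p = 3.2e-06), with number 1 lowest, and it fell with IFNg/LPS (-3.57, adjusted p = 6.1e-06), where its receptor subunit Itga5 rose. Vcam1, the cellular ligand of Itga4, fell with IL-4 (-2.55, adjusted p = 1.2e-05). Between genotypes in IFNg/LPS, Fn1 (1.51, adjusted p = 0.048), Thbs1 (1.31, adjusted p = 0.0017) and Lamb2 (0.87, adjusted p = 0.030) were higher and Spp1, osteopontin (-1.19, adjusted p = 0.038), lower. Of all tested genes 6.94% were called higher there and 7.79% lower. Without the library labelled p110g-/- number 1 the Spp1 call ended (-0.90, adjusted p = 0.13) and those of Fn1 (1.77), Thbs1 (1.16) and Lamb2 (0.93) held. In IL-4, Spp1 (-1.47, adjusted p = 0.036) and Icam1 (-0.69, adjusted p = 0.026) were lower, beside 1.34% of all tested genes higher and 1.99% lower. In M-CSF limma called 0 of 20 (background 1.06% and 1.27%), with 6 at an unadjusted p under 0.05, 0 by edgeR and 1 by DESeq2. Apart from Thbs1, each of these genotype calls ended in at least 1 alternative.

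Of 51 tested genes of integrin activation and the adhesion complex, 26 rose and 19 fell with IFNg/LPS in WT (36.3% and 37.5% of all tested genes). With IL-4, 11 rose and 20 fell in WT (22.9% and 21.1%). In p110g-/- cells it was 25 and 22 with IFNg/LPS (36.2% and 36.8%), and 9 and 20 with IL-4 (22.7% and 21.2%). The adaptor Bcar1 (5.0, adjusted p = 1.0e-05) rose and the GTPase regulators Arap3 (-5.76, adjusted p = 5.7e-13) and Rasgrp3 (-5.22, adjusted p = 2.1e-07) fell with IFNg/LPS. With IL-4, Zyx, zyxin (2.18, adjusted p = 3.4e-05), rose and Fyb, an adaptor of integrin activation (-1.69, adjusted p = 8.7e-08), fell. Between genotypes 2 were higher and 8 lower in IFNg/LPS, against 6.94% and 7.79% of all tested genes. They were led by Arap3 (1.07, adjusted p = 0.0012), Vav3 (-0.89, adjusted p = 2.6e-06), Fgr (-0.77, adjusted p = 0.015) and Actn1 (0.53, adjusted p = 0.039). Vav3, an exchange factor downstream of integrins, read 963, 829 and 845 in p110g-/- and 1531, 1824 and 1526 in WT IFNg/LPS. Without the library labelled p110g-/- number 1 these 4 calls held, at 1.19 for Arap3, -0.95 for Vav3, -0.81 for Fgr and 0.73 for Actn1. In IL-4 the talin recruiter Apbb1ip (-0.39, adjusted p = 0.036) was lower. The Fgr, Actn1 and Apbb1ip calls each ended in at least 1 alternative (adjusted p of up to 0.072, 0.20 and 0.19). In M-CSF limma called 0 of 51 (background 1.06% and 1.27%), with 6 at an unadjusted p under 0.05, 0 by edgeR and 1 by DESeq2.

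Across the 18 libraries, the genes most like a member in pattern were found by Pearson correlation of log2(signal + 1) over 12597 genes with a mean of at least 50. The libraries share stimuli and library numbers, and no p is given. Itgax was most like Itgad (r = 0.992), its neighbour and a close relative in sequence, and how reads shared by the 2 were counted is not given in the sources used here. Itga5 was most like hexokinase 1, Hk1 (r = 0.997), Itgal like the membrane metalloprotease Mmp14 (r = 0.995), and Itga6 like diacylglycerol kinase delta, Dgkd (r = 0.984). Itgb3 was most like LOC100503180 (r = 0.990), Itgb1 like Btbd2 (r = 0.962), Itgav like C230081A13Rik (r = 0.933), Itga4 like Pkd1 (r = 0.933) and Itgb2 like citrate synthase, Cs (r = 0.922). Itgam had no close match, its best being Slc18a1 (r = 0.771). Among the members, Itgax and Itgb3 ran together (r = 0.959), as did Itga5 and Itgal (r = 0.925), and Itgal ran opposite to Itgb3 (r = -0.954) and Itgax (r = -0.938).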

How the data were processed

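RNA of bone marrow-derived macrophages was sequenced on an Illumina HiSeq2000, per the labels. The deposited values are a normalised signal per gene, which the submitters' processing notes tie to CASAVA 1.8.2, Bowtie2, DESeq and mm9. Every value was a whole multiple of 1 step per library (100% within a tolerance of 0.1), so reads were recovered for edgeR and DESeq2.

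log2(signal + 1) was fitted with limma 3.58.1 in R 4.3.3 (6 group means, 12 residual degrees of freedom, trended and robust variance, 2-sided) over 15627 genes with a signal of at least 10 in at least 3 libraries. Fold changes are on that log2(signal + 1) scale, and p-values were adjusted by Benjamini-Hochberg over all tested genes within a comparison, with a threshold of 0.05. Alternatives were other pseudocounts, no filter, plain variance, the compared groups by themselves, the library number as a block, numbers 2 and 3 by themselves, median ratio scaling, equal totals, 1 library left out, edgeR 4.0.16 and DESeq2 1.42.0. The fit was also run on simulated reads that held no effect of library number, so that run does not bear on such an effect.

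Members and lists were chosen with earlier results of these data known. Of each list, up to 4 called genes with the largest change and a group mean of at least 50 were named per comparison, and other named values were chosen after they were seen; 1 gene that the rule names is not reported here. Labels share library numbers across groups. The main fit used no pairing, and the library number entered only as a block in an alternative. In some comparisons every same-numbered pair of libraries correlated above 0.1 in its deviations from the group means. These were between genotypes in IFNg/LPS (0.546, 0.34 and 0.256), with IFNg/LPS in WT and with IL-4 in both genotypes. Exon lengths came from GENCODE M21 (GRCm38), not from the authors' annotation. Intervals and floors cover counting error only.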

Additional observations from a re-analysis of the deposited data

Results flagged for a closer look

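For 4 genes of the integrin lists, none of them among the 10 subunits described, the difference between genotypes itself differed between IFNg/LPS and M-CSF (limma, interaction term). Itgb8 had an interaction of 1.55 on the log2 scale (adjusted p = 0.030, up to 0.077 in the alternatives), with the p110g-/- libraries higher in both stimuli and more so in IFNg/LPS. Thbs1, which codes for the matrix protein thrombospondin, had an interaction of 1.48 (adjusted p = 0.029, up to 0.072). It read 145195, 112639 and 100415 in p110g-/- and 58048, 42057 and 44270.1 in WT IFNg/LPS. The Src family kinase Fgr had an interaction of -1.46 (adjusted p = 0.013, up to 0.047) and read 1857, 1560.4 and 1900.2 in p110g-/- IFNg/LPS, below the 3252, 2587 and 3274 of WT. Vav3 had an interaction of -0.81 (adjusted p = 0.0013, up to 0.013). Without the library labelled p110g-/- IFNg/LPS number 1, whose Pik3cg goes against its label, the interactions were 1.55 for Itgb8, 1.33 for Thbs1, -1.50 for Fgr and -0.87 for Vav3, with adjusted p of 0.043, 0.047, 0.016 and 0.00054.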

How the results depend on the processing

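Of 39 called member values 29 kept their call in every alternative. Equal totals, chosen after seeing the data, reversed Itgav with IFNg/LPS in WT (0.09 to -0.42) and Itgb2 with IFNg/LPS in p110g-/- cells (0.32 to -0.085); a change of sign with no call under either setting was counted as unchanged. Members called between genotypes in M-CSF numbered 1, with 0 under plain variance or the compared groups by themselves, 3 with numbers 2 and 3 by themselves and 0 to 2 with 1 library left out. In IFNg/LPS they numbered 3, with 0 in the compared groups, 7 with numbers 2 and 3, and 2 to 4 with 1 left out. In IL-4 they numbered 2, with 1 under plain variance or the compared groups, 5 with numbers 2 and 3, and 0 to 3 with 1 left out. Averaged, 3 became 7 with numbers 2 and 3, and 2 to 5. The IFNg/LPS interaction went from 0 to 4 with numbers 2 and 3, 3 with equal totals, 2 by DESeq2 and 0 to 2 with 1 left out, and the IL-4 interaction from 0 to 1 with numbers 2 and 3, and 0 to 1. The cause was not tested; fits of fewer libraries have fewer degrees of freedom. With the replicate block, the pairing changed 1 of 100 member values, Itga5 between genotypes in IFNg/LPS (0.55, adjusted p = 0.018), which gave 4 members called there.

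Over all genes, the count in M-CSF between genotypes was 365, with 555 under the block, 688 with numbers 2 and 3, 673 by DESeq2 and 239 or 241 without p110g-/- number 2 or 1. In IFNg/LPS it was 2303, with 708 in the compared groups, 4166 with numbers 2 and 3 and 1466 without p110g-/- number 2. In IL-4 it was 520, with 2285 with numbers 2 and 3, 921 by DESeq2 and 239 to 276 without number 2 or 3 of either genotype. The average was 1846, with 3537 from numbers 2 and 3. The IFNg/LPS interaction was 381, with 716 under the block, 211 in the compared groups, 1708 with numbers 2 and 3, 892 by DESeq2 and 183 to 633 with 1 left out. The IL-4 interaction was 0, with 10 at pseudocount 10, 8 under the block, 2 under plain variance, 385 with numbers 2 and 3, 3 with equal totals, 77 by DESeq2 and up to 89 with 1 left out.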
